A study of Mus musculus with 6 samples.

Results

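Dio2 and 5 further genes of thyroid hormone signalling were examined in cardiac macrophages of legumain-deficient (Lgmn KO) and wild-type (WT) mice. The 6 genes were taken by name from the 34745 genes of the deposited table: the deiodinase Dio2, the receptor genes Thra, Thrb and Rxra, the hormone transporter Slc16a10 and the corepressor Ncor1. They were selected on earlier results of the same Lgmn KO against WT comparison, in which Dio2 stood out, so their differences are given here as a description and without p-values. The animals were C57BL/6 mice aged 8 weeks in both groups, and the series places all samples after myocardial infarction. The labels name permanent ligation of the left anterior descending artery and a sham operation without assigning them to libraries. Macrophages came from enzymatically digested hearts stained for CD45, CD64 and CD11b, and messenger RNA was sequenced in 3 Lgmn KO libraries (replicates 1, 2 and 4) and 3 WT libraries (replicates 1, 2 and 3). Legumain is a lysosomal endopeptidase. The labels do not say how its gene was disrupted or in which cells. Nothing in the labels states that libraries stem from different animals, so the spread between them may be technical.

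Thyroid hormone reaches cells mostly as the prohormone thyroxine, which enters through membrane transporters. Inside the cell the deiodinase Dio2 removes an iodine from its outer ring and yields the active hormone triiodothyronine, which binds nuclear receptors (Thra, Thrb) that pair with retinoid X receptors such as Rxra on DNA. Without hormone the receptors hold corepressors such as Ncor1, and with hormone they exchange them for coactivators. Dio2 is a selenoprotein, its transcription is known to respond to cAMP, and its protein is removed by the ubiquitin system after it has met its substrate.

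Total counts lay between 19546253 and 24086976 per library. A count of 0 in a library still allows up to 3 counts, which is 0.125 to 0.153 CPM (library-scaled counts, using TMM factors) and covers counting error only. The targeted gene checked the labels: Lgmn was at 78.7, 88.5 and 83.5 CPM in Lgmn KO libraries, against 2205, 2692 and 2277 CPM in WT libraries. Of the macrophage markers Ptprc, Fcgr1, Itgam, Adgre1, Csf1r, Mertk and Cd68, 7 of 7 were tested and 0 were called. Summed, they lay at 5448 to 6330 CPM in Lgmn KO libraries, against 5565 to 7009 CPM in WT libraries, with Cd68 as 44.4% to 61.4% of the sum. Without Cd68 the sum was 2168 to 2516 CPM in Lgmn KO libraries, against 2453 to 3896 CPM in WT libraries. Cardiomyocyte markers summed to 3.21 to 3.73 CPM in Lgmn KO libraries, against 3.25 to 4.53 CPM in WT libraries.

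Dio2 (ENSMUSG00000007682) lies on the minus strand of chromosome 12 from 90724554 to 90738438 in the table, which follows the mouse build GRCm38. The 250 bases before its RefSeq transcript start (GRCm38.p6, chr12:90739039-90739288, minus strand, read toward the gene) are shown because they hold the only exact copy of the cAMP response element found in the windows of these genes. Capitals mark that element.

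Dio2 promoter: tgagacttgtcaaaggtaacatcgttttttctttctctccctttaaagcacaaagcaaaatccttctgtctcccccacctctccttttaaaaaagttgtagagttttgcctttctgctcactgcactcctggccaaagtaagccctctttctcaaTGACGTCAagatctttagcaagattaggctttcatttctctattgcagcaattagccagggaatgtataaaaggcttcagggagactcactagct

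The element TGACGTCA, which reads the same on both strands, spans bases -95 to -88 before the RefSeq start. That start lies 600 bases upstream of the start of Dio2 in GENCODE. It occurs in 1.79% of 32851 RefSeq promoter windows of 300 bases (250 before and 50 after the start). RefSeq windows were found for 5 members, Dio2, Thrb, Rxra, Slc16a10 and Ncor1, and not for Thra. Among their 8 windows only that of Dio2 held TGACGTCA. The nuclear receptor core motif AGGTCA, searched on both strands, was in 1 of 2 Thrb windows and 1 of 2 Rxra windows, in none of the Dio2, Slc16a10 and Ncor1 windows, and in 16.3% of all windows. These matches describe letters in the windows and say nothing about binding in these cells.

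Dio2 rose in macrophages without legumain. It had 840, 945 and 1303 CPM in Lgmn KO replicates 1, 2 and 4, against 431, 368 and 435 CPM in WT replicates 1, 2 and 3. Every Lgmn KO library was above every WT library, and Lgmn KO replicate 4 stood highest, at 3.17 times the WT mean, with replicates 1 and 2 at 2.04 and 2.30 times. The mean was 1030 ± 243 CPM in Lgmn KO libraries, against 411 ± 37.7 CPM in WT libraries (mean ± SD of 3 libraries each), a 2.50-fold difference (log2 fold change 1.32, standard error 0.16). Over all genes edgeR's quasi-likelihood test, with an adjusted p below 0.05 as the threshold for a call, called 99 of 12546 tested genes (0.789%). Of the 5 members tested Dio2 was the 1 called, and nothing is read from that count, since Dio2 was selected on this contrast.

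The transcript was abundant in both groups. By FPKM (counts scaled to gene length and library size) it ranked 231, 201 and 125 among the 34745 listed genes in Lgmn KO replicates 1, 2 and 4, whereas its ranks were 476, 611 and 498 in WT replicates 1, 2 and 3. It took 0.0836% to 0.129% of all counts in Lgmn KO libraries and 0.0367% to 0.0439% in WT libraries. The authors' deposited table gives Dio2 a log2 fold change of 1.31 and marks it as up.

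The size of the rise depended little on single libraries, the call more. Without any 1 library the log2 fold change lay between 1.11 (without Lgmn KO replicate 4) and 1.46 (without Lgmn KO replicate 1). The call ended without Lgmn KO replicate 2 (1.38), WT replicate 2 (1.25) or WT replicate 3 (1.37).

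Several macrophage markers had negative log2 fold changes alongside this rise, though 0 of the 7 were called. Csf1r, the receptor for macrophage colony-stimulating factor, had 486, 555 and 609 CPM in Lgmn KO libraries, against 686, 1116 and 964 CPM in WT libraries (log2 fold change -0.74, adjusted p = 0.0916, edgeR's quasi-likelihood test). Csf1r and Mertk (-0.24) were lower in every Lgmn KO library than in any WT library. Groups did not overlap in 23.7% of all tested genes. Fcgr1 (-1.09), Adgre1 (-0.51) and Itgam (-0.36) also had negative log2 fold changes, with overlapping groups, while Ptprc was at 0.0058 and Cd68 at 0.18. The part of these differences in the result for Dio2 was not tested.

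Markers of other cells were set beside the rise as well, since a sorted population can carry some of them. Summed fibroblast markers (Col1a1, Col1a2, Pdgfra, Dcn, Lum and Tcf21) were at 42.0, 109 and 94.8 CPM in Lgmn KO libraries, against 144, 170 and 123 CPM in WT libraries. The fibroblast sum was lower in every Lgmn KO library than in any WT library. Mural cell markers summed to 8.54 to 16.9 CPM in Lgmn KO libraries, against 9.63 to 20.8 CPM in WT libraries, with Acta2 as most of the sum. Endothelial markers summed to 23.7 to 41.7 CPM in Lgmn KO libraries, against 36.3 to 42.0 CPM in WT libraries, with Kdr as 71.0% to 95.6% of the sum and 1 of 3 tested (Flt1) called lower. Without Kdr (log2 fold change 0.01) the sum was 1.84 to 2.22 CPM in Lgmn KO libraries, against 8.34 to 12.2 CPM in WT libraries. Flt1 was the largest part of that sum, at 0.920 to 1.43 CPM in Lgmn KO libraries, against 6.38 to 11.1 CPM in WT libraries. Tie1, not tested, went the other way, with 6, 8 and 6 counts in Lgmn KO libraries, against 0, 1 and 3 in WT libraries. Cdh5, also not tested, overlapped between the groups. Pecam1 had 0.148, 0.409 and 0.141 CPM in Lgmn KO libraries, against 0.828, 1.76 and 1.46 CPM in WT libraries (log2 fold change -2.52, adjusted p = 0.0769), and its groups did not overlap. T and NK cell markers summed to 0.148 to 0.460 CPM in Lgmn KO libraries, against 1.996 to 4.42 CPM in WT libraries. Dendritic cell markers summed to 1.04 to 1.69 CPM in Lgmn KO libraries, against 1.95 to 2.82 CPM in WT libraries, with 1 of 2 tested (Zbtb46) called lower. The other, Cd209a, had a log2 fold change of 0.68 with overlapping groups. Without Zbtb46 the sum overlapped, at 0.754 to 1.38 CPM in Lgmn KO libraries, against 0.584 to 1.46 CPM in WT libraries. B cell markers summed to 1.94 to 2.73 CPM in Lgmn KO libraries, against 1.996 to 5.38 CPM in WT libraries, and neutrophil markers to 19.5 to 21.3 CPM in Lgmn KO libraries, against 16.6 to 20.0 CPM in WT libraries. In none of these lists was a marker at 0 in all 6 libraries. The part of these cells in the result for Dio2 was not tested. In bulk RNA, fewer cells of a type and less RNA per cell cannot be told apart.

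**Figure D1:**
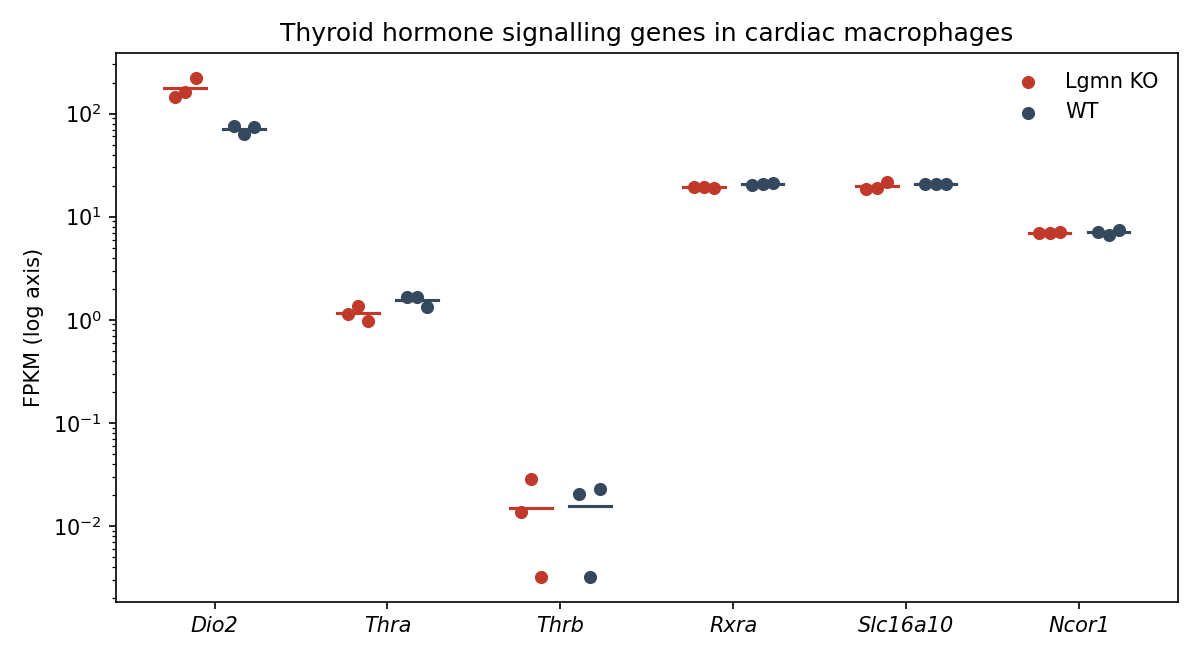
FPKM of the 6 genes (log axis) in each library, Lgmn KO left and WT right, with group means as lines. Dio2 sits highest in both groups and its groups are apart (means 176 and 71.0 FPKM in Lgmn KO and WT), whereas Thrb sits near 0.015 FPKM in both.

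None of the other 4 tested members was called, and their log2 fold changes lay between -0.41 and -0.0020. FPKM puts levels of different genes on 1 scale. Dio2 averaged 176 ± 40.6 FPKM in Lgmn KO and 71.0 ± 6.88 FPKM in WT (mean ± SD of 3 libraries each). In Lgmn KO the order below Dio2 was Slc16a10 (19.8 ± 1.56 FPKM), Rxra (19.4 ± 0.294 FPKM), Ncor1 (7.01 ± 0.0565 FPKM), Thra (1.16 ± 0.193 FPKM) and Thrb (0.0151 ± 0.0126 FPKM). In WT the order was Rxra (20.7 ± 0.615 FPKM), Slc16a10 (20.6 ± 0.0318 FPKM), Ncor1 (7.08 ± 0.457 FPKM), Thra (1.55 ± 0.197 FPKM) and Thrb (0.0156 ± 0.0108 FPKM). Slc16a10 and Rxra overlapped in their libraries in each group, so their order is not resolved. All other neighbours in the order were apart. Dio2 stood 8.91 times above the next gene in Lgmn KO and 3.43 times in WT.

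Hormone transport was represented by Slc16a10, a carrier of thyroid hormones and aromatic amino acids (chromosome 10, 40033535 to 40142254). It had 101, 103 and 118 CPM in Lgmn KO replicates 1, 2 and 4, against 109, 112 and 112 CPM in WT replicates 1, 2 and 3. The Lgmn KO libraries lay on both sides of the narrow WT range, and the log2 fold change was -0.05 (standard error 0.08).

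Thra, the receptor gene on chromosome 11 (98740638 to 98769006), was the member with the next largest difference. It had 6.71, 7.92 and 5.75 CPM in Lgmn KO replicates 1, 2 and 4, from 136, 155 and 122 counts, and 9.54, 9.72 and 7.76 CPM in WT replicates 1, 2 and 3, from 196, 210 and 186 counts. Lgmn KO replicate 2 was slightly above WT replicate 3, so the groups overlapped. The log2 fold change was -0.41 (standard error 0.17), and Thra was not called. Thra shares 263 exon bases (5.70% of its exon bases) with Nr1d1, a repressor of the circadian clock on the opposite strand, and the files do not say whether counting kept the strand, so reads from that stretch cannot be told apart. Nr1d1 itself had 1.68, 2.35 and 2.97 CPM in Lgmn KO libraries, against 2.19, 2.87 and 2.88 CPM in WT libraries, with overlapping groups (log2 fold change -0.18).

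Thrb, the other hormone receptor gene (chromosome 14, 17660960 to 18038088), was close to the limit of detection. It had 4, 8 and 1 counts in Lgmn KO replicates 1, 2 and 4, against 6, 1 and 8 counts in WT replicates 1, 2 and 3. It did not pass the filter on low counts and was not tested, and no difference was detectable at this depth.

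Rxra, the partner of the hormone receptors and of several other nuclear receptors (chromosome 2, 27676440 to 27762957), had 163, 162 and 160 CPM in Lgmn KO replicates 1, 2 and 4. The WT replicates 1, 2 and 3 had 164, 171 and 178 CPM. Its groups did not overlap, which was so for 23.7% of all tested genes and for 2 of the 5 tested members (Dio2 and Rxra). The gap between Lgmn KO replicate 1 and WT replicate 1 was small, the log2 fold change was -0.08 (standard error 0.06), and Rxra was not called.

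Ncor1, which bridges unliganded receptors to histone deacetylase (chromosome 11, 62316426 to 62458541), had 146, 146 and 150 CPM in Lgmn KO replicates 1, 2 and 4, against 147, 138 and 158 CPM in WT replicates 1, 2 and 3. The Lgmn KO libraries lay within the WT range. Its log2 fold change was -0.0020 (standard error 0.07). In the authors' deposited table the log2 fold change of the 5 members besides Dio2 lies between -0.42 for Thra and -0.02 for Ncor1, with no mark for direction.

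The wider pathway was read from 10 lists with 69 genes, 63 of them outside the 6 members. All were found in the table, and Marchf6 and Selenof, whose symbols stand there as date-like strings, were matched by gene ID. Of the 63, 55 were tested and 0 were called by edgeR's quasi-likelihood test. Before adjustment 15 of the 55 (27.3%) had a p below 0.05, beside 17.5% of all tested genes, and DESeq2's Wald test called 7 of 55 with an adjusted p, 3 higher and 4 lower. Over all genes with an adjusted p, DESeq2 called 5.67%. The median log2 fold change of the 55 was -0.0079, beside -0.0021 over all 12546 tested genes, and 27 of the 55 values were positive.

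**Figure D2:**
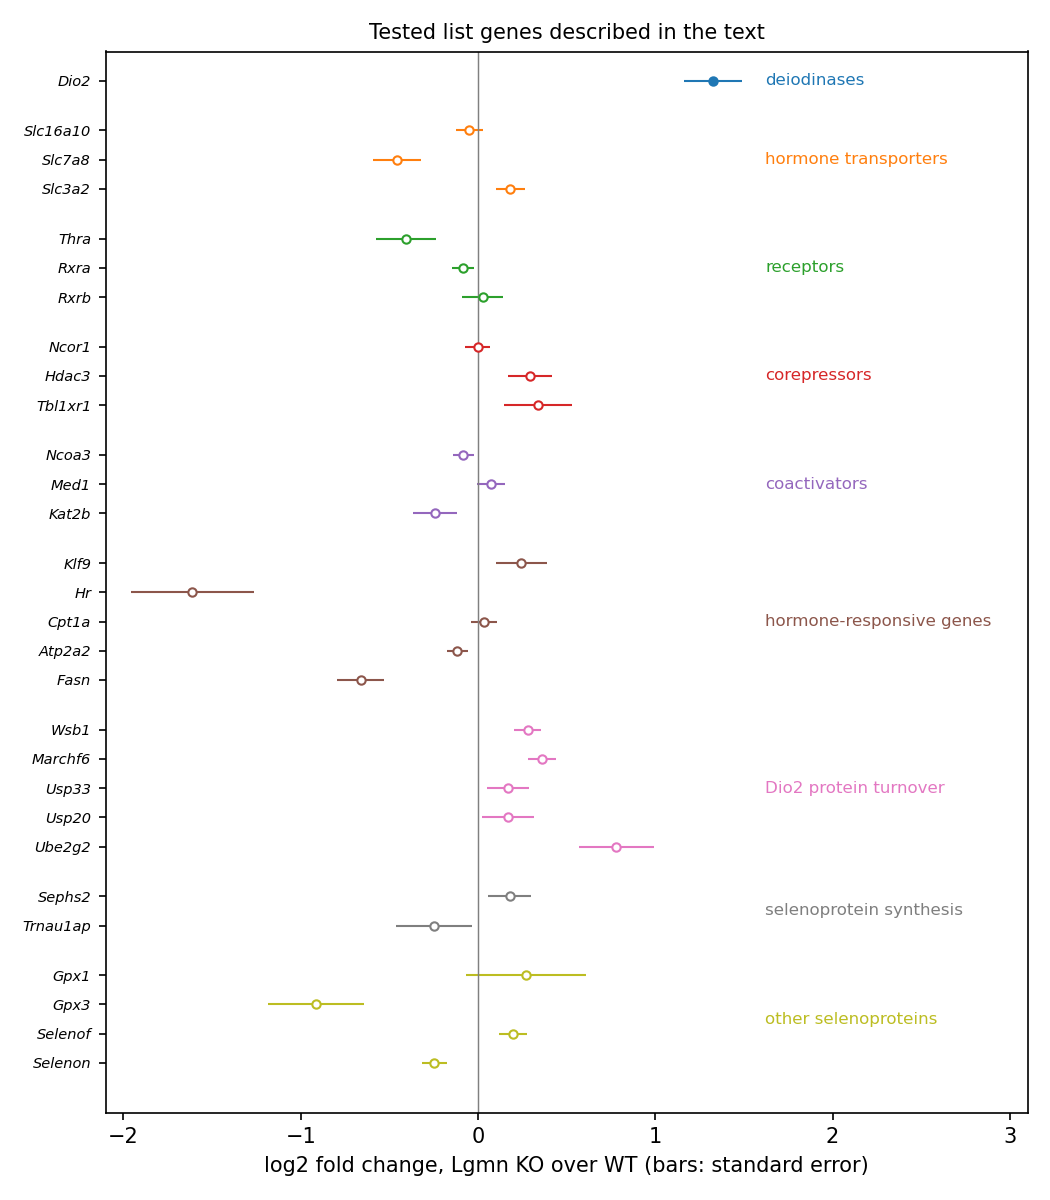
Log2 fold change (Lgmn KO over WT) of the tested genes described by name in each list, with standard errors. The filled point is the 1 gene called, Dio2 at 1.32, and open points were not called.

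Dio2 was the only deiodinase gene with counts. Dio1, which also activates the hormone, and Dio3, which inactivates it, had 0 counts in all 6 libraries, which allows up to 0.153 CPM in a library. Among 7 transporters 6 were tested, with a median log2 fold change of -0.25, and Slco1c1 was at 0 in all libraries. Slc7a8, a light subunit of the large amino acid transporters, had 98.9, 104 and 105 CPM in Lgmn KO libraries, against 120, 173 and 129 CPM in WT libraries (log2 fold change -0.46, adjusted p = 0.148). Every Lgmn KO library was below every WT library for Slc7a8. The heavy subunit gene Slc3a2 was the most abundant transporter gene by CPM, with a log2 fold change of 0.18.

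Of the 5 receptor genes, Rxrb had a log2 fold change of 0.03 and Rxrg had 0 counts in all libraries. The 6 corepressor genes had a median of 0.03 and reached 0.34 for Tbl1xr1, with Hdac3, the deacetylase of the complex, at 0.29 (adjusted p = 0.289). The 8 coactivator genes ranged from -0.24 for Kat2b to 0.07 for Med1, with a median of -0.06. Ncoa3 was the most abundant of them, at 182 ± 4.96 CPM in Lgmn KO libraries, against 192 ± 2.68 CPM in WT libraries (mean ± SD of 3 libraries each).

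Genes known to respond to thyroid hormone, mostly from liver, heart and brain, were more often lower than higher where tested. Of 10 such genes 7 were tested, 2 were positive, and the median log2 fold change was -0.21. By edgeR's quasi-likelihood test 0 were called and 3 had p below 0.05 before adjustment, while DESeq2 called 2, Fasn and Hr. The shares over all genes were 17.5% for such a p and 5.67% for a call by DESeq2. In 4 of the 7, Hr, Fasn and Atp2a2 among them, every Lgmn KO library was below every WT library, and in 0 the reverse. Groups did not overlap in 23.7% of all tested genes. Klf9, a transcription factor induced by the hormone in many tissues, had 37.0, 40.9 and 40.4 CPM in Lgmn KO libraries, against 40.6, 27.0 and 32.3 CPM in WT libraries, with overlapping groups (log2 fold change 0.24, adjusted p = 0.440). Fasn, the fatty acid synthase, had 32.3, 36.9 and 26.8 CPM in Lgmn KO libraries, against 55.9, 49.5 and 46.5 CPM in WT libraries (log2 fold change -0.66, adjusted p = 0.0701). Every Lgmn KO library was below every WT library for Fasn. Hr, which encodes a corepressor of the hormone receptors, had 0.642, 0.613 and 0.613 CPM in Lgmn KO libraries, against 1.22, 2.18 and 2.34 CPM in WT libraries (log2 fold change -1.61, adjusted p = 0.0817). Cpt1a, an enzyme of fatty acid import into mitochondria, had a log2 fold change of 0.03 and Atp2a2, the calcium pump of the endoplasmic reticulum, of -0.12. Thrsp and Pck1 had 0 counts in all libraries. Crym, which binds the hormone in the cytosol, was not tested and reached at most 0.185 CPM.

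Among 7 genes for the removal or rescue of Dio2 protein, 5 had a positive log2 fold change, the median was 0.17, and 0 were called. Before adjustment 3 had p below 0.05, the same 3 that DESeq2 called. Over all genes the shares were 17.5% for such a p and 5.67% for a call by DESeq2. Marchf6, a ubiquitin ligase of the endoplasmic reticulum, had 137, 137 and 123 CPM in Lgmn KO libraries, against 102, 97.9 and 110 CPM in WT libraries (log2 fold change 0.36, adjusted p = 0.0817). Wsb1, the substrate adaptor of another ligase of Dio2, had 144, 160 and 144 CPM in Lgmn KO libraries, against 120, 119 and 130 CPM in WT libraries (log2 fold change 0.28, adjusted p = 0.124). Ube2g2, a ubiquitin-conjugating enzyme, had 32.8, 58.6 and 56.9 CPM in Lgmn KO libraries, against 30.3, 30.3 and 25.9 CPM in WT libraries (log2 fold change 0.78, adjusted p = 0.128). In each of the 3, every Lgmn KO library was above every WT library, and for Ube2g2 replicate 1 of Lgmn KO lay close to WT. In 1 other gene of this list every Lgmn KO library was below every WT library. Groups did not overlap in 23.7% of all tested genes. The deubiquitinase genes Usp33 and Usp20 were both at 0.17.

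The 6 genes for building selenocysteine into proteins lay between -0.25 for Trnau1ap and 0.18 for Sephs2, with a median of -0.03. Of 16 other selenoprotein genes 9 were positive, with a median of 0.09. By edgeR's quasi-likelihood test 0 were called and 7 had p below 0.05 before adjustment, beside 17.5% of all tested genes. DESeq2 called 1, Gpx3, beside 5.67% of all genes with an adjusted p. In 5 of the 16 every Lgmn KO library was above every WT library, and in 4 the reverse. Groups did not overlap in 23.7% of all tested genes. Gpx3, a secreted glutathione peroxidase, was at 8.79 ± 2.66 CPM in Lgmn KO libraries, against 16.5 ± 4.02 CPM in WT libraries (mean ± SD of 3 libraries each; log2 fold change -0.91, adjusted p = 0.151 by edgeR's quasi-likelihood test). For Selenon, a redox protein of the endoplasmic reticulum, the log2 fold change was -0.25 (adjusted p = 0.141), and for the abundant Gpx1 it was 0.27, with overlapping groups.

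The neighbourhood of Dio2 was examined next, since Dio2 and Lgmn are on the same chromosome. The gap between them is 11655645 bases in the table. Gm26512, a long noncoding RNA on the opposite strand that GENCODE M21 classes as sharing a bidirectional promoter, starts inside Dio2, and its first exon (90738201 to 90738300) lies wholly within a Dio2 exon. It had 119, 96 and 128 counts in Lgmn KO replicates 1, 2 and 4, against 59, 53 and 69 counts in WT replicates 1, 2 and 3, or 5.60 ± 0.610 CPM in Lgmn KO libraries, against 2.73 ± 0.243 CPM in WT libraries (mean ± SD of 3 libraries each). Every Lgmn KO library was above every WT library, with a log2 fold change of 1.03 (standard error 0.18, adjusted p = 0.0519, edgeR's quasi-likelihood test), and Gm26512 was not called. The 2 genes share 100 exon bases, 1.72% of those of Dio2 and 2.69% of those of Gm26512. Without a stated strand setting, reads of Dio2 and Gm26512 there cannot be told apart.

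Cep128, a gene of the centrosome and cilia and the nearest tested gene on the side toward Lgmn (0.26 Mb away), had 20.8, 20.7 and 21.8 CPM in Lgmn KO libraries, against 16.99, 13.7 and 14.1 CPM in WT libraries (log2 fold change 0.50, adjusted p = 0.0875). On the other side the nearest tested gene was Adck1, 2.26 Mb away, with 22.9, 24.1 and 24.8 CPM in Lgmn KO libraries, against 20.5, 22.0 and 20.4 CPM in WT libraries (log2 fold change 0.19, adjusted p = 0.322). The groups of both genes did not overlap, which was so for 23.7% of all tested genes. Within 2 Mb of Dio2 there were 5 other tested genes (Gm26512, Cep128, Sel1l, Gtf2a1 and Ston2), of which 4 had a positive log2 fold change, 3 had all Lgmn KO libraries above all WT libraries, and 0 were called by edgeR's quasi-likelihood test (3 had an unadjusted p below 0.05, and DESeq2 called 3, Gm26512, Cep128 and Gtf2a1). Over all tested genes 17.5% had an unadjusted p below 0.05, and DESeq2 called 5.67% of all genes with an adjusted p. The median of the 5 window genes was 0.36, and the window was chosen after the values were seen. Within 15 Mb 152 genes were tested, with a median of 0.01, and Dio2 was the 1 gene called higher, with 4 called lower.

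**Figure D3:**
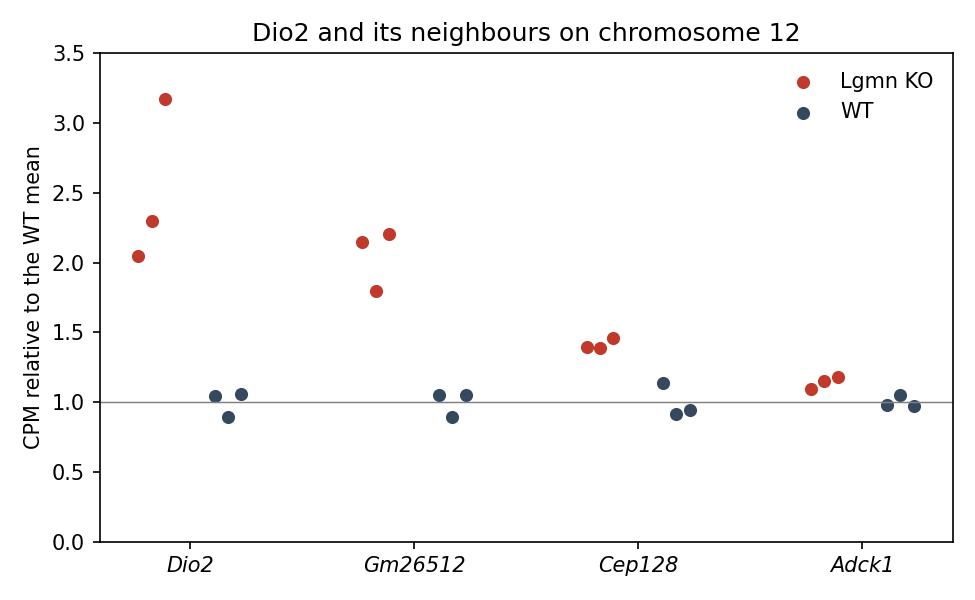
CPM relative to the WT mean (line at 1) for Dio2, the overlapping Gm26512 and the nearest tested gene on either side, 1 point per library, Lgmn KO left and WT right. The Lgmn KO points of Dio2 lie at 2.04 to 3.17, and the Lgmn KO points of each of the 4 genes lie above its WT points.

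**Figure D4:**
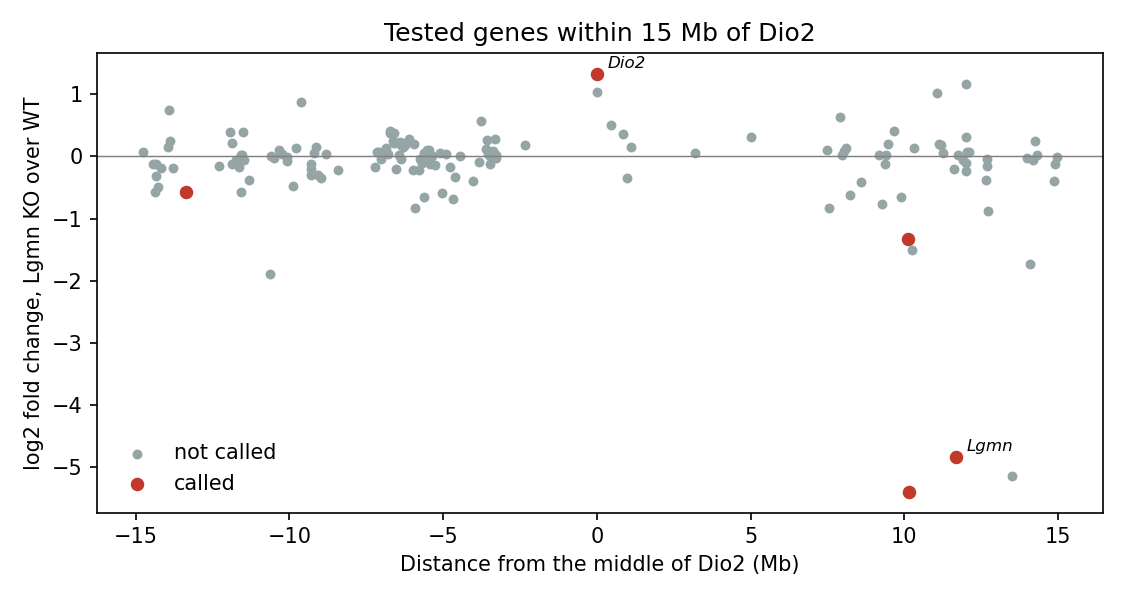
Log2 fold change (Lgmn KO over WT) of the 152 tested genes within 15 Mb of the middle of Dio2, against their distance. Red points were called; Dio2 at 1.32 is the 1 called higher, and Lgmn at -4.84 lies to the right.

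The genes whose pattern was most like that of Dio2 were found by Pearson's r of log2 CPM over the 6 libraries, among 9563 other genes with a mean of at least 5 CPM. They were Gm26917, a long noncoding RNA (r = 0.997), Mtss1, which encodes an actin and membrane binding protein (r = 0.995), Impact, a regulator of the amino acid stress kinase Gcn2 (r = 0.991), Plk2, a polo-like kinase (r = 0.991), and Tmem38b, a cation channel of the endoplasmic reticulum (r = 0.988). Mtss1 had 267, 299 and 343 CPM in Lgmn KO libraries, against 196, 170 and 184 CPM in WT libraries, and Plk2 had 481, 498 and 555 CPM in Lgmn KO libraries, against 378, 346 and 350 CPM in WT libraries. As for Dio2, their Lgmn KO replicate 4 was highest and their WT replicate 2 lowest. All 5 share the difference between the groups, which makes up much of r over so few libraries. By deviation from the group mean, which leaves that difference out, the nearest were Smpd4, a neutral sphingomyelinase gene (r = 0.999), Pde7b, a phosphodiesterase that degrades cAMP (r = 0.999), Tmem26 (r = 0.996), Golga3, a Golgi protein gene (r = 0.994), and Ncoa3 (r = 0.994). Of the members, Slc16a10 had the highest such r with Dio2 (0.883), followed by Ncor1 (0.506), Rxra (-0.218) and Thra (-0.646). These values describe 6 libraries that share their processing, and no test was made of them.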

How the data were processed

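Per the file headers, the deposited table holds raw read counts and FPKM per gene and library, the authors' log2 fold change, and their p-values and q-values. The deposited counts are whole numbers with a different total in each library. The authors' mean FPKM, p-values and q-values were not used. HISAT2, TopHat and TopHat2 2.0.9 are named in the submitters' processing notes, with the human build hg38; the table's positions are mouse ones, and 98.8% of its IDs are in GENCODE M21 (GRCm38). Neither the counting tool and its strand setting nor the authors' test is stated.

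Counts were filtered with filterByExpr, scaled with TMM and tested with edgeR 4.0.16 in R 4.3.3 (glmQLFit, glmQLFTest, no covariate), with Benjamini-Hochberg adjustment over all 12546 tested genes. Standard errors follow from the F statistic. log2 CPM used a prior count of 2. Levels per length are the deposited FPKM. Itgam, listed under 2 IDs, was read from its GENCODE ID. The procedure was tested on simulated data.

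Members, lists and tests were chosen with earlier results of these data known. Named besides the members were each list's called genes, smallest p and highest means (partly as ranges). The 5 likest genes, genes sharing exons with members and the nearest tested genes were named by the same rule. Further genes at the end of a range, at 0 or called by DESeq2 were chosen after their values were seen. So were single markers and the marker sums without Cd68, Kdr or Zbtb46. Ttc19 and Pigl, which overlap other members, are not described. Some list genes that this rule names are not reported here. Alternatives were RLE factors, DESeq2 1.42.0, no low-count filter, an adjusted p of 0.1, a replicate block and each library left out.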

Additional observations from a re-analysis of the deposited data

How the results depend on the processing

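Dio2 stayed higher in Lgmn KO under all 11 alternatives, with log2 fold changes of 1.11 to 1.46, and kept its call in 6. Besides the fits without 1 library, it lost the call among libraries 1 and 2 of each group, with the replicate block (1.16) and, in a fit chosen after the data were seen, without it (1.16). The numbers 1 and 2 occur in both groups, but no label ties them to shared animals. The correlation of deviations was 0.122 for replicates 1 and 0.0757 for replicates 2. For pairs of unlike number it lay between -0.168 and 0.114. These few values cannot decide whether libraries of the same number share more than that number. The count of genes called over the whole table was 99, 90 with RLE factors, 782 with DESeq2, 318 without the low-count filter, 503 at an adjusted p of 0.1, 33 with the replicate block and 4 without it in the same libraries, and 6 to 639 without 1 library. The list genes outside the members gave 0 calls, 7 with DESeq2, 1 without the filter (Fasn), 3 at 0.1 (Hr, Fasn and Marchf6) and 0 to 3 without 1 library. Thra lay between -0.53 and -0.30 and Rxra between -0.11 and -0.04 throughout. Ncor1 lay at 0 within its error and changed sign: 0.0063 with RLE factors, 0.0075 with DESeq2, 0.0097 without the filter, 0.037 with the replicate block, 0.0363 without it in the same libraries, and -0.048 to 0.047 without 1 library. Slc16a10 lay between -0.124 and 0.0019 without 1 library. The cause of these shifts was not tested. Depth limits Thrb and the genes at 0.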
